A study of Mus musculus with 24 samples.

Results

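The positive arm of the circadian clock was examined in mouse brain endothelium through the 4 genes that encode its transcription factors, Arntl (Bmal1), Arntl2 (Bmal2), Clock and Npas2. They were taken by gene symbol from a table of 53465 genes, and all 4 passed the filter of the study's methods (a normalized count of at least 5 in 6 or more mice of either genotype), as did 15493 genes in all. Endothelial cells had been sorted from single brains with an antibody to CD31 (PECAM1), and each library came from 1 mouse. Control mice were Bmal1fl/fl and mutant mice were Bmal1fl/fl; Tie2-cre, all on C57BL/6J and kept under a light and dark cycle, so that both genotypes carried the floxed alleles and differed in the Cre transgene. Collection began at ZT2 and went on every 4 h to ZT22, where zeitgeber time (ZT) counts hours from lights on, with 2 mice of each genotype at each time, which gave 12 control and 12 mutant libraries. Neither the age nor the sex of single mice was used here. Tie2 (Tek) drives Cre in endothelium and also in cells of blood origin, and cells other than endothelium keep an intact Bmal1 gene unless they too expressed Cre.

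BMAL1 and its homologue BMAL2 are bHLH-PAS proteins that pair with CLOCK or with its close relative NPAS2. The pairs bind E-box sequences and switch on the Per, Cry and Nr1d genes and the output gene Dbp. The PER and CRY proteins then block the pair, and the Nr1d genes encode the REV-ERB receptors, which repress Arntl, Npas2 and Clock through ROR elements, where the ROR receptors act as activators. The mutants remove a floxed exon of Arntl. Reads were counted over the whole gene, so the Arntl count holds transcripts of the deleted allele as well as intact ones and does not check the deletion.

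On GRCm38, Arntl (ENSMUSG00000055116) lies on the plus strand at chr7:113207465-113314126. Arntl2 (ENSMUSG00000040187) lies on the plus strand at chr6:146796055-146833529. Clock (ENSMUSG00000029238) lies on the minus strand at chr5:76209868-76304792, and Npas2 (ENSMUSG00000026077) on the plus strand at chr1:39193731-39363236. Whether the authors' counting used the strand of the reads is not given in the sources used here. An antisense gene that overlaps exons of Arntl, Gm45355, had 0 reads in all 24 libraries.

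Because Arntl carried the clearest change with time, the part of its start region that holds the 2 matches to AAAGTAGGTNA is shown. This form of the ROR element was read from the Arntl sequence itself, as the bases shared by the 2 plus-strand matches to AGGTNA in the window of a second annotated start; the AGGTAA in the upstream bases printed below lies outside that window and is not preceded by the same bases. Both matches are on the plus strand in an annotated 5' untranslated exon, at chr7:113207501-113207511 and chr7:113207537-113207547, and the capitals mark them. Sequences are from RefSeq with GRCm38.p6, 5' to 3'.
Arntl site 1: attggtcggAAAGTAGGTTAgtggtgcga
Arntl site 2: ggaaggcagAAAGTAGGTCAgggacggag
Of 32851 promoter windows in RefSeq (250 bases before to 50 after each start site, both strands searched), 20 (0.0609%) held this form at least once. Since the form was read from Arntl, its presence there was fixed by that choice, and nothing is read from its rarity. The core AGGTCA, which the second site contains, occurred in 16.3% of windows. The E-box CACGTG occurred in 7.15% of windows and in none of those of Arntl, Arntl2, Clock or Npas2. The 250 bases upstream of the first Arntl start, chr7:113207215-113207464 on the plus strand, are shown with ATTGG (the reverse complement of the CCAAT box) in capitals.
Arntl upstream: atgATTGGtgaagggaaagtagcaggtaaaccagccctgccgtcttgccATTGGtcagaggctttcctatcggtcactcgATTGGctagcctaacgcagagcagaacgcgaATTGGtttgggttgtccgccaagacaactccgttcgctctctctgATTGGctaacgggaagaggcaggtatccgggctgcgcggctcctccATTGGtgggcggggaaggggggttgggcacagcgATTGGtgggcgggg
ATTGG occurred 7 times in these bases and 8 times in the whole window. Of all windows, 37.4% held at least 1 copy, 11.7% held 2 or more, and 1 window, that of Arntl, held 8 or more, a limit taken from the count in Arntl itself. These are matches of letters and no measure of binding.

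Library totals lay between 6136404 and 6648311 normalized reads, a range set by the authors' normalization. The 10 brain endothelial markers were high in both genotypes, with medians of 98048 summed reads in controls and 102925 in mutants. Microglial markers (10 of 10 past the filter) ranged from 1218 to 25025 summed reads in controls and from 1319 to 29123 in mutants, and the 6 leukocyte markers from 11 to 1516 in controls and from 27 to 875 in mutants, with Ly6g at 0 in every library. The ZT6 and ZT18 libraries stood apart, with 2.68% to 3.90% of reads on mitochondrial genes against 5.78% to 17.4% in the other 16. Each library carried one of 2 i5 index sequences, which were the same in both genotypes at ZT6, ZT14, ZT18 and ZT22 and differed between the genotypes at ZT2 and ZT10.

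Clock was the most abundant of the 4 genes per length of merged exons in all 24 libraries. In controls the mean level was 74.8 ± 12.2 reads per kb for Clock (SD, n = 12) and 25.9 ± 24.7 for Arntl. Npas2 followed at 13.4 ± 18.5 reads per kb and Arntl2 at 1.89 ± 1.28. The spreads of Arntl and Npas2 overlapped widely, and Arntl exceeded Npas2 in 8 of 12 control mice. In mutants Clock stood at 88.7 ± 10.8 reads per kb, Npas2 at 42.6 ± 17.6, Arntl at 30.1 ± 9.88 and Arntl2 at 3.43 ± 3.06. Npas2 then exceeded Arntl in 9 of 12 mice, so that this pair changed places in the order of means while their ranges still overlapped.

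In control mice, Arntl was high around dawn and nearly absent around dusk. The 2 mice at ZT10 had 1 and 22 normalized reads, and those at ZT14 had 15 and 13. Counts were 267 and 261 at ZT18, then 468 and 234 at ZT22. The highest mean was at ZT2, with 439 and 466, and by ZT6 the counts were 99 and 57. Every control mouse at ZT18, ZT22 and ZT2 was thus above every control mouse at ZT6, ZT10 and ZT14. This split was picked from the Arntl values themselves, and the share of all genes that separate along it was not computed. In mutant mice, Arntl transcripts stayed in a narrower band. Counts were 120 and 169 at ZT10 and 251 and 354 at ZT14, followed by 286 and 231 at ZT18. At ZT22 they were 242 and 205, at ZT2 243 and 259, and at ZT6 81 and 276. No mutant mouse was as low as the controls at dusk or as high as the controls at ZT2. These limits were likewise picked from the Arntl values.

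**Figure D1:**
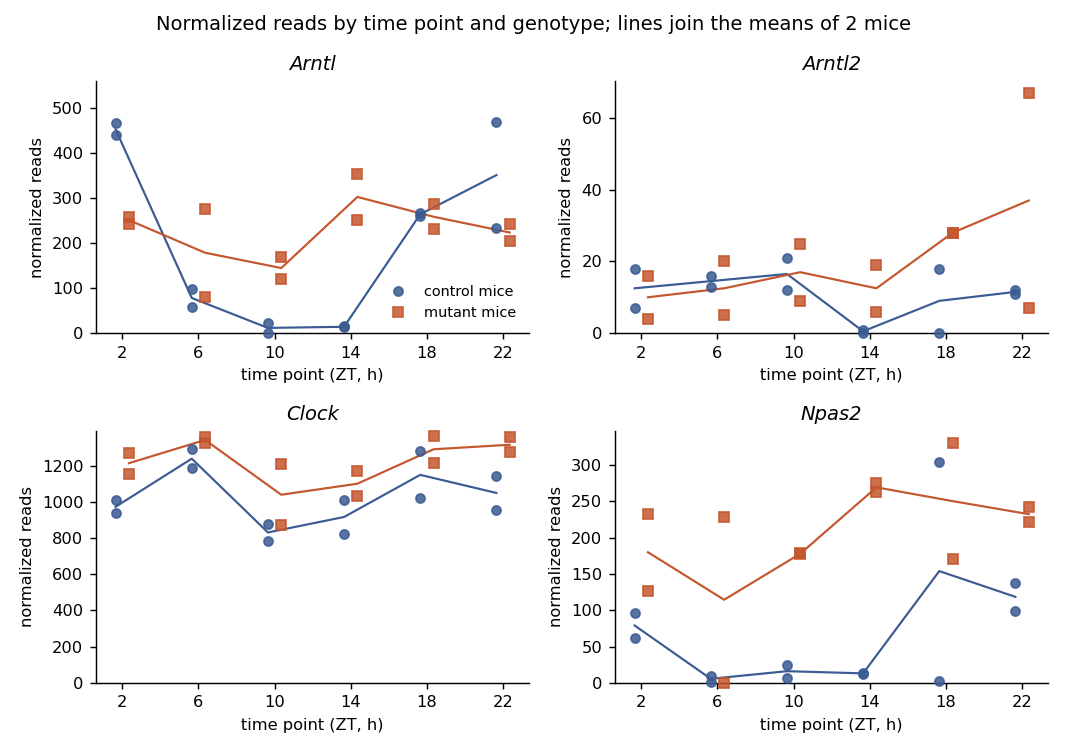
Normalized reads (y axis) of Arntl, Arntl2, Clock and Npas2 against ZT in hours (x axis), with 1 point per mouse, circles for controls and squares for mutants, and lines through the means of 2 mice. Control Arntl falls to between 1 and 22 reads at ZT10 and ZT14, where the mutants hold between 120 and 354, and Npas2 is at 177 to 276 in mutants against 7 to 25 in controls at the same times.

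At ZT10 and ZT14 together, Arntl transcripts rose in the mutants, with 224 ± 102 reads (SD, n = 4) against 12.8 ± 8.73 in controls. The log2 fold change was 3.98 ± 0.44 (SE; edgeR quasi-likelihood test, adjusted p = 1.27e-05), the second-smallest p among 15493 genes, and all 4 mutants lay above all 4 controls. Leaving out single mice moved it between 3.51 (without the ZT10 control with 1 read) and 5.67 (without the ZT10 control with 22). Of all genes tested, 0.355% were called in this contrast (0.219% higher in mutants), and 2.45% had every mutant above every control. At ZT14, where all 4 libraries shared an i5 index, the means were 302.5 reads in mutants and 14 in controls. At that time 26% of all genes had every mutant above every control. The ZT14 controls also had the lowest TMM scaling factors of all libraries, 0.873 and 0.896. The labels number the ZT14 mutants far from the ZT14 controls, and what the numbers stand for is not given. At ZT22 and ZT2 the direction was the opposite, with 237 ± 22.9 reads in mutants and 402 ± 113 in controls (n = 4 each). That difference of -0.74 ± 0.35 did not pass the test (edgeR adjusted p = 0.80), and the lowest control, 234 reads at ZT22, lay within the mutant range. It was -0.95 without that control and -0.45 without the other ZT22 control. The genotype difference itself changed between the pairs of time points by 4.72 ± 0.56 on the log2 scale (edgeR contrast, adjusted p = 0.000114), and by 4.25 to 6.41 with single mice left out. This was the smallest p of all genes in a contrast that called 3 genes (0.0194%), and among the 24 other clock genes tested Per2 was called in it, in the opposite direction (-2.91 ± 0.39, adjusted p = 0.000515). Per2 encodes a repressor of the pair.

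**Figure D2:**
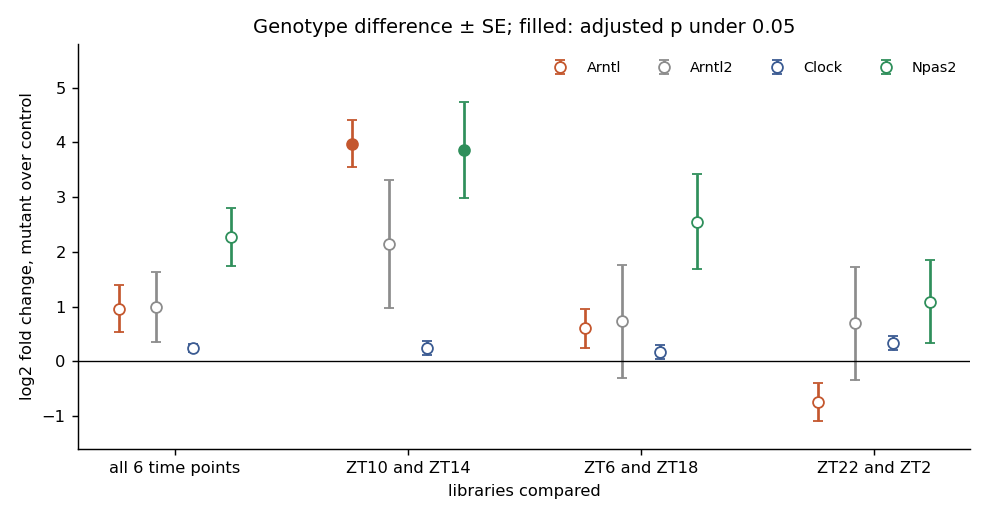
Log2 fold change of mutant over control with its SE (y axis) for each of the 4 genes over all time points and in each pair of time points (x axis), with filled points where the adjusted p was under 0.05. Only Arntl and Npas2 at ZT10 and ZT14 are filled, at 3.98 and 3.87, and Arntl is below 0 at ZT22 and ZT2.

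The 24-h pattern of Arntl was then measured in each genotype. A cosine fit to log2(reads + 1) had an amplitude of 3.12 ± 0.48 in controls (SE, n = 12), a peak at ZT23.1 ± 0.59 h and a fitted peak-to-trough ratio of 76.0, with p = 0.00025 over 100000 permutations of the time points. In mutants the amplitude was 0.42 ± 0.22 (permutation p = 0.230). By meta2d, which combines JTK_CYCLE and Lomb-Scargle at 24 h, Arntl had q = 0.588 in controls and q = 1.00 in mutants (Benjamini-Hochberg over all genes). At a q under 0.05, meta2d called 0 genes in either genotype, with 377 genes in controls and 351 in mutants at an unadjusted p under 0.05. With the rewritten meta2d used here, the study's threshold of q under 0.6 left 48 genes (0.31%) in controls and 6 (0.0387%) in mutants. The paper reports slightly fewer genes in controls and the same number in mutants. An edgeR cosinor called 14 genes (0.0904%) in controls, Arntl among them (adjusted p = 0.0209), and 0 in mutants, with 645 mutant genes at an unadjusted p under 0.05. With a block for replicate number, which follows the order of labels and marks no known batch, the cosinor called 4 genes in controls. The call of Arntl was then lost (edgeR adjusted p = 0.0555). In the test of the rhythm difference between genotypes, Arntl had the smallest p of 15493 genes (edgeR), but the adjusted p was 0.141 and 0 genes were called, with 660 (4.26%) at an unadjusted p under 0.05. DESeq2 called Arntl alone in that test, with an adjusted p of 4.05e-06, and an exact permutation test that reassigned genotype within time points gave p = 0.00214 for Arntl (two-sided, 46656 arrangements).

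**Figure D3:**
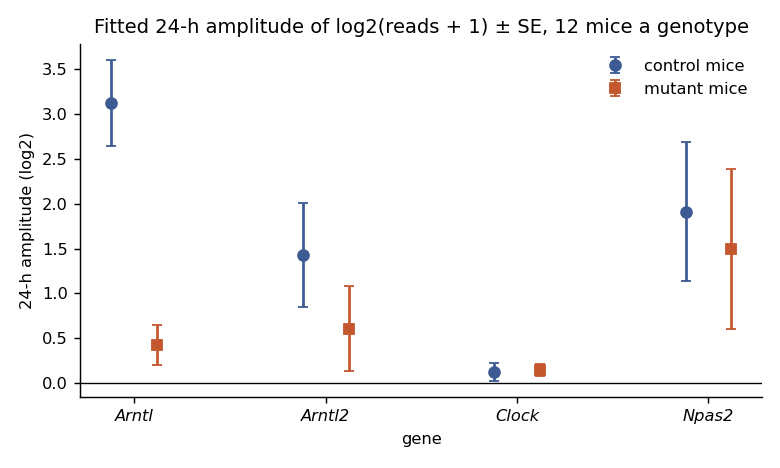
Amplitude of a 24-h cosine fitted to log2(reads + 1), with its SE (y axis), for each gene (x axis) in 12 control mice (circles) and 12 mutant mice (squares). Arntl falls from 3.12 in controls to 0.42 in mutants, while the error bars of both genotypes overlap for Arntl2, Clock and Npas2.

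Npas2, the alternative partner of BMAL1, was higher in mutants than in controls at most times. Control mice had 25 and 7 normalized reads at ZT10, 14 and 12 at ZT14, and 3 and 305 at ZT18. They had 99 and 138 at ZT22, 96 and 62 at ZT2, and 1 and 10 at ZT6. Apart from the single mouse with 305 reads at ZT18, controls were above 25 reads at ZT22 and ZT2 alone. In mutants the counts were 177 and 179 at ZT10, 263 and 276 at ZT14, and 170 and 331 at ZT18. They were 243 and 222 at ZT22, 127 and 233 at ZT2, and 0 and 229 at ZT6. All mutants but the one at 0 had at least 127 reads, and 11 of 12 exceeded the control median of 19.5.

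At ZT10 and ZT14, Npas2 passed the test in the mutants, with 224 ± 53.1 reads against 14.5 ± 7.59 in controls (n = 4 each). The log2 fold change was 3.87 ± 0.88 (edgeR adjusted p = 0.0491), the largest p among the 55 genes called, and again all 4 mutants lay above all 4 controls. The call was lost with DESeq2 (adjusted p = 0.0586) and with a mean of 10 reads as the filter (0.0547), and leaving out single mice moved the adjusted p between 0.00311 and 0.307. At ZT6 and ZT18 the difference was 2.55 (adjusted p = 0.679), and leaving out single mice moved it between -2.36 (without the ZT6 mutant with 229 reads) and 5.34, so that its sign rested on 1 mouse. At ZT22 and ZT2 it was 1.09 (adjusted p = 0.944), and neither pair passed. The difference between the pairs ZT10 and ZT14 and ZT22 and ZT2 was 2.78 ± 1.13 (adjusted p = 0.591), which did not show that the size of the Npas2 change depended on time. Over all 6 time points the log2 fold change was 2.27 ± 0.53 (edgeR adjusted p = 0.0573), just outside the threshold that 42 genes (0.271%) passed. It was past the threshold with DESeq2 (adjusted p = 0.0199), without the ZT6 and ZT18 libraries (0.00413) and without the control mouse with 305 reads (0.00339), and far from it with the i5 index in the model (2.28 ± 0.67, adjusted p = 0.335). Within the ZT6 and ZT18 libraries, which shared an i5 index, the difference was 2.10 ± 0.88 (adjusted p = 0.866), and within those of ZT14 and ZT22, which shared the other, it was 2.42 ± 0.52 (adjusted p = 0.161). The exact permutation of genotype within time points gave p = 0.00429 for Npas2 (two-sided). Among 2297 genes with means of 100 to 200 reads, 0.114% of values were 0 and 0.579% lay under 10% of the gene's mean. The mutant ZT6 library with no Npas2 reads held 9 of those genes at 0 and 45 under 10% of their mean, and the control ZT18 library with 3 Npas2 reads held 37 under 10%. The ZT6 and ZT18 libraries also had more genes at 0 (median 1047 of those past the filter, against 498 in the others), and the part of this in the Npas2 values was not tested.

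The 24-h change of Npas2 was less certain than that of Arntl. In controls the fitted amplitude was 1.91 ± 0.78 with a peak at ZT21.8 ± 1.6 h, close to that of Arntl, and the permutation p was 0.104. In mutants it was 1.5 ± 0.89 (permutation p = 0.0912). The rhythm difference of Npas2 did not pass (edgeR adjusted p = 1.00, unadjusted p = 0.0593). The exact permutation gave p = 0.468. It did not remove the genotype difference in level, so for Npas2 it does not test rhythm alone. A processed pseudogene inside Npas2 on the same strand, Gm3617, whose exons do not overlap those of Npas2, had means of 0.667 reads in controls and 9.75 in mutants. It was chosen after its values were seen and was not tested.

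Clock, the more abundant of the CLOCK and NPAS2 partners per length, had mean reads of 1027 in controls and 1218 in mutants. Among controls the time point means ran from 831.5 at ZT10 to 1239.5 at ZT6, with 1150 at ZT18, and ZT6 and ZT18 are the libraries that stood apart in mitochondrial reads. Controls ranged from 785 to 1292 reads with a median of 1010.5, and mutants from 871 to 1365 with a median of 1245. At ZT22 and ZT2 the controls had 1142, 958, 938 and 1009 reads and the mutants 1359, 1274, 1157 and 1272, without overlap. At ZT2 the i5 index also differed between the genotypes. In the contrast of ZT22 and ZT2, 1.72% of all genes had every mutant above every control. The difference there was 0.33 (edgeR adjusted p = 0.732), and 1 gene (0.00645%) was called. Over all time points the log2 fold change was 0.25 ± 0.07 (edgeR adjusted p = 0.220; DESeq2 adjusted p = 0.0535; exact permutation p = 0.000772), with 11 of 12 mutants above the control median. It thus did not pass over all genes, where 6.95% of genes had an unadjusted p under 0.05. With the i5 index in the model the Clock difference was 0.20 ± 0.09 (edgeR adjusted p = 0.627). Within the ZT6 and ZT18 libraries it was 0.17 ± 0.12 (adjusted p = 0.989), and within those of ZT14 and ZT22 0.25 ± 0.14 (adjusted p = 0.797). Clock reads also followed the make-up of the libraries. Across the 24 libraries the correlation with summed endothelial markers was r = 0.55, with astrocyte markers -0.61, with oligodendrocyte markers -0.58 and with microglial markers -0.55, as a description. The ranges of these marker sums overlapped between the genotypes, and their part in the Clock difference was not tested. In sorted bulk samples, fewer endothelial cells and less Clock RNA per cell cannot be told apart. The amplitude of a 24-h cosine, which cannot follow 2 maxima in a day, was 0.12 ± 0.10 in controls and 0.15 ± 0.07 in mutants. The test for a rhythm difference gave an adjusted p of 1.00 for Clock (edgeR) and an exact permutation p of 0.902.

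Arntl2, which encodes the other BMAL protein, had few reads. Of the controls, those at ZT14 had 1 and 0 reads, those at ZT18 had 0 and 18, and those at ZT22 had 11 and 12. The ZT2 controls had 18 and 7, the ZT6 controls 16 and 13 and the ZT10 controls 21 and 12. Mutants ranged from 4 to 67 reads with a median of 17.5, and the value of 67 stood in a ZT22 mouse whose group partner had 7. The genotypes overlapped in each pair of time points. At ZT14 the mutants (19 and 6 reads) lay above the controls, as in 26% of all genes. The ZT18 mutants (28 and 28 reads) did too, as in 15.4% of all genes. Ranges overlapped at ZT2, ZT6, ZT10 and ZT22. The log2 fold change over all times was 0.99 ± 0.64 (edgeR adjusted p = 0.832), and at ZT10 and ZT14 it was 2.14 ± 1.17 (adjusted p = 0.617). Neither value was stable. The first was 1.62 with the i5 index in the model, and 0.73 and 2.60 within either index, and the second moved between 1.64 and 3.35 with single mice left out. A change of Arntl2 was not detected, and no limit of detection was computed for it.

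The make-up of the positive arm was read from reads per kb within each library. Npas2 contributed a median of 6.19% of the Npas2 and Clock reads per kb in controls (0.221% to 46.1%) and 33.6% in mutants (0% to 43.4%). Values in mutants lay at or above 23.9% in every mouse but the one with 0 Npas2 reads. The ratio of Arntl to Clock reads per kb spanned 0.00232 to 0.854 in controls and 0.109 to 0.626 in mutants, with medians of 0.260 and 0.363. The mutant range lay inside the control range. Arntl2 gave 0% to 96.5% of the Arntl and Arntl2 reads per kb in controls, the highest value coming from the ZT10 mouse with 1 Arntl read, and 2.00% to 26.8% in mutants.

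**Figure D4:**
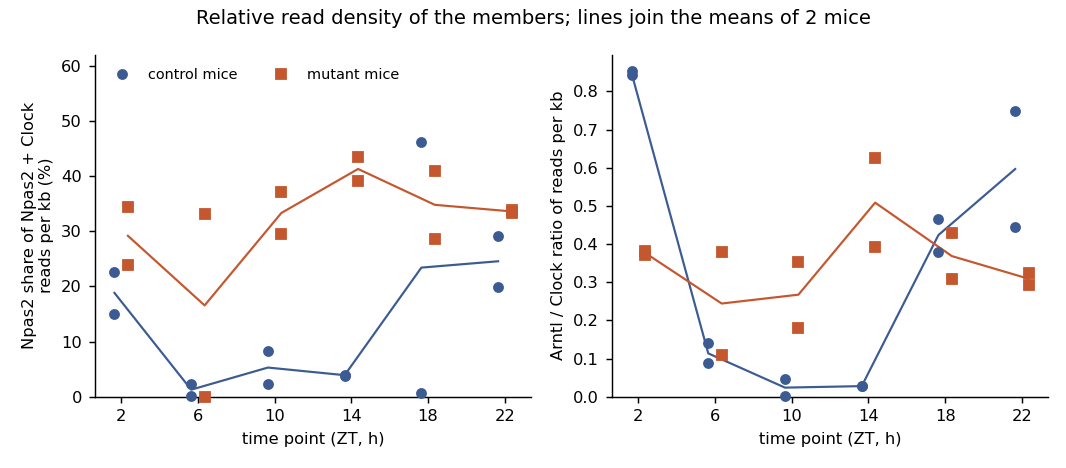
Left, the Npas2 share of Npas2 and Clock reads per kb (y axis, %) against ZT in hours (x axis); right, the ratio of Arntl to Clock reads per kb, with 1 point per mouse and lines through the means of 2 mice. The Npas2 share has a median of 33.6% in mutants and 6.19% in controls, and the Arntl to Clock ratio of controls spans 0.00232 to 0.854.

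Some of the other clock genes fell in the mutants, mainly REV-ERB and PAR bZIP genes, and most did not pass the test. Of 25 listed genes, 24 were tested, and over all time points 6 fell and 1 rose in mutants (edgeR adjusted p under 0.05, against 0.116% of all genes lower and 0.155% higher). The list median was -0.06, against 0.00 for all genes tested. The genes that fell were the REV-ERB genes Nr1d1 (-2.26 ± 0.34) and Nr1d2 (-1.90 ± 0.21), the period gene Per3 (-1.89 ± 0.24), and the PAR bZIP genes Dbp (-1.26 ± 0.25), Tef (-0.87 ± 0.16) and Hlf (-0.76 ± 0.14). Nr1d2 had the smallest p of all genes. Cry1, which encodes a repressor of the pair, was the gene that rose (0.89 ± 0.14, adjusted p = 0.000759). At ZT10 and ZT14, where Arntl and Npas2 rose, 6 listed genes fell (0.136% of all genes), namely Nr1d2 (-2.52 ± 0.34), Per3 (-2.55 ± 0.40), Per2 (-1.77 ± 0.26), Dbp, Tef and Hlf, and Nr1d1 was at -1.87 ± 0.50 (adjusted p = 0.132). At ZT6 and ZT18, where 4 genes (0.0258%) were called, all 4 were listed clock genes, with Nr1d1 (-3.49), Nr1d2 (-2.03) and Dbp (-1.96) lower and Cry1 (1.11) higher. Rora, which encodes an activator at ROR elements, was at -0.16 ± 0.09 (adjusted p = 0.793). Of 12 other bHLH-PAS genes, 7 were tested, among them Arnt, Hif1a and Epas1, and edgeR called 0 of them in any contrast between genotypes. At an unadjusted p under 0.05 there were 0 over all times and at ZT10 and ZT14, 1 at ZT22 and ZT2, 1 at ZT6 and ZT18 and 2 in the contrast of pairs. The shares of all genes at that limit were 6.95% over all times and 9.1% at ZT10 and ZT14. They were 6.14% at ZT22 and ZT2, 6.14% at ZT6 and ZT18 and 7.64% in the contrast of pairs. DESeq2 called 0 of those to which it gave an adjusted p, which were 5 of the 7 over all times and in the contrast of pairs, 3 at ZT22 and ZT2, and all 7 in the other contrasts.

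**Figure D5:**
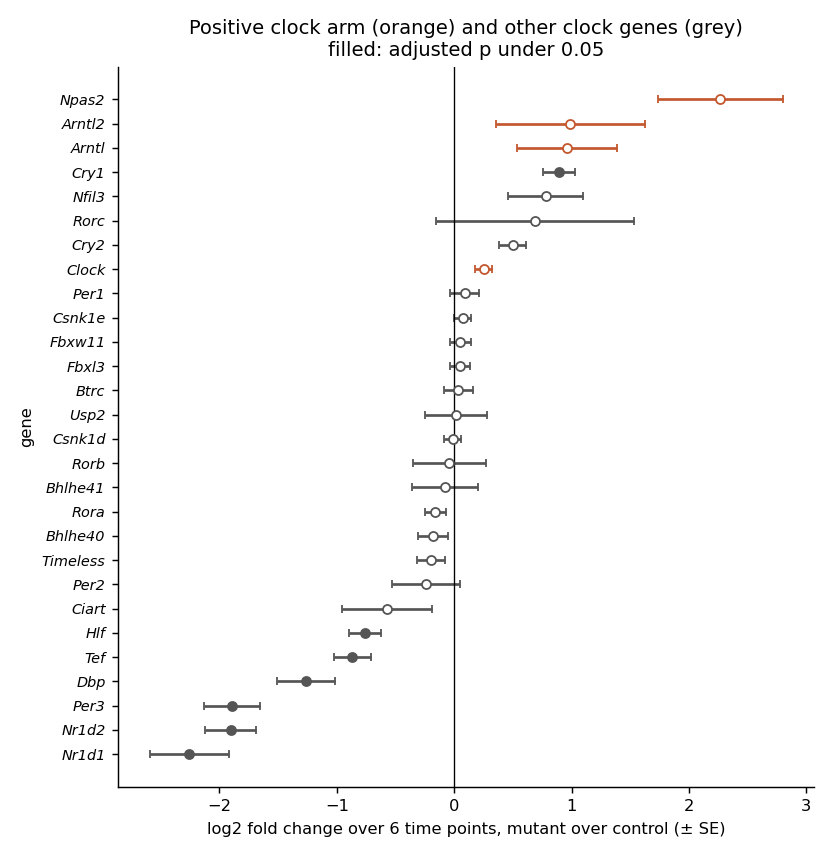
Log2 fold change of mutant over control over 6 time points with its SE (x axis) for Arntl, Arntl2, Clock and Npas2 (orange) and 24 other clock genes (grey), ordered by value (y axis), with filled points where the adjusted p was under 0.05. Npas2 is highest at 2.27 and unfilled, and Nr1d1 is lowest at -2.26.

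The correlation of Npas2 and Arntl with the genes that fell differed from gene to gene. The correlation of log2 CPM (reads scaled to library size) between Npas2 and Nr1d2 was -0.75 in controls and -0.67 in mutants (12 libraries each, as a description; the mice of a time point share time of day and mostly i5 index). Between Npas2 and Per3 it was -0.73 in controls and -0.72 in mutants. Npas2 and Nr1d1 stood at -0.42 in controls and 0.22 in mutants, and Npas2 and Dbp at -0.61 and -0.0050. Arntl and Nr1d2 stood at -0.75 in controls and -0.62 in mutants. With Arntl, Nr1d1 stood at -0.40 and 0.083, Dbp at -0.75 and -0.25, and Per3 at -0.79 and -0.77. Nr1d2 and Per3 were thus negative with both genes in both genotypes, while Nr1d1 was not in mutants. Negative values were not particular to genes of repressors. Rora, which encodes an activator at ROR elements and was not called, stood at -0.65 and -0.51 with Npas2. With Arntl, Rora stood at -0.53 and -0.44. Correlations with Tef and Hlf were not computed. Arntl and Npas2 stood at 0.43 and 0.76. A single mutant library at ZT6 held the lowest mutant count of both genes, 81 for Arntl and 0 for Npas2. The mutant correlations of these genes without that library were not computed. Over the 24 libraries, the 5 genes most like Npas2 by Pearson r were Trim8 (0.87), Thra (0.82), Mlec (0.82), Spaar (0.81) and Rftn2 (0.81). Those most like Arntl were Mmp15 (0.84), the tight junction gene Cldn5 (0.83), Fam124b (0.82), Tspan18 (0.80) and Ggps1 (0.78). For Clock they were Nedd9 (0.79), Sorbs2 (0.78), Thbd (0.76), Gm42544 (0.75) and Cdk19 (0.75), and for Arntl2 Tmem250-ps (0.80), Slc26a2 (0.71), Rab5c (0.70), Nsun2 (0.69) and Me3 (0.69). Of the genes named for Arntl, Tspan18 stood at 0.90 in controls and 0.26 in mutants, and Ggps1 at 0.91 and -0.16. Mmp15, Cldn5 and Fam124b stood at 0.69, 0.87 and 0.67 in mutants.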

How the data were processed

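RNA of CD31-sorted brain endothelium was sequenced as strand-specific total RNA libraries. The authors aligned reads to GRCm38 with STAR 2.5.3a, merged lanes with SAMtools 1.3.1 (versions per the submitters' processing notes), and counted and normalized them on Ensembl genes with PORT. The deposited values are whole-number normalized read counts per gene, so the original depth of each library is not in them, and intervals of counting error were not computed. Genotype and time were taken from the sample labels, which hold no replicate number. The mice of a group were numbered in the order of their labels, so the replicate block stands for no known batch.

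edgeR 4.0.16 (R 4.3.3) was used for the counts (quasi-likelihood F-test, TMM factors, Benjamini-Hochberg adjustment over 15493 genes, called at an adjusted p under 0.05). The genotype difference in level was fitted with time point as a factor over 24 libraries, pairs of time points as contrasts in a model with 1 mean per group, and the rhythm difference as interactions with a 24-h cosine and sine. The biological coefficient of variation was 42.4%. meta2d was rewritten in Python 3.11.15 with the settings of the study's methods. Cosine fits used log2(reads + 1), and correlations used log2 CPM (edgeR, prior count 2). The exact permutation tests reassigned genotype within each time point (two-sided), and permutations of time points numbered 100000. The genotype difference in level was not removed first, so the exact test of rhythm takes no genotype effect of any kind as its null. The tests were tried on simulated counts first. Levels were compared between genes only per kb of merged GENCODE M21 exons.

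Named genes were the 4 genes of the positive arm in every library, the called genes of a fixed clock list with Nr1d1, Nr1d2 and Rora, called genes among other bHLH-PAS genes, and the 5 genes with the highest r to each gene of the arm. Genes and lists were chosen with earlier results of these data known. The contrast between pairs of time points and the fits within one i5 index were chosen after seeing the data. Same-numbered mice were not treated as pairs: the correlation of deviations of same-numbered control and mutant mice lay between -0.01 and 0.02, and each mouse was a separate library.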

Additional observations from a re-analysis of the deposited data

Results flagged for a closer look

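In 24 sets of 4 mice (1 gene, 1 genotype and a pair of time points), 2 held a mouse far from the other 3, and chance alone gives about 5% of sets. For Npas2 in controls at ZT6 and ZT18, 1 mouse at ZT18 had 305 reads and the others 1, 3 and 10. For Arntl in controls at ZT22 and ZT2, 1 mouse at ZT22 had 234 reads and the others 439, 466 and 468. The Arntl genotype difference at ZT10 and ZT14 exceeded that at ZT22 and ZT2 by 4.72 on the log2 scale (edgeR adjusted p = 0.000114).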

How the results depend on the processing

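Of 864 alternative values of the 4 genes, 817 kept their side of the threshold and, where they were log2 differences, their direction. Results that were uncalled and stayed uncalled count among them. The permutation runs set an unadjusted p against the threshold. For Arntl, the calls at ZT10 and ZT14 and in the contrast of the pairs of time points held under every alternative run. The number of genes called moved more. With DESeq2 it was 99 for level, 140 at ZT10 and ZT14, 7 at ZT22 and ZT2, 32 at ZT6 and ZT18, 48 for the contrast of pairs and 1 for the rhythm difference (Arntl, adjusted p = 4.05e-06). With any gene that had a read kept, these counts were 141, 169, 52, 74, 92 and 52, Npas2 reached adjusted p-values of 4.44e-24 for level (log2 fold change 2.27), 8.46e-09 at ZT6 and ZT18 (2.56), 9.12e-06 for the contrast of pairs (2.78) and 5.67e-06 for the rhythm difference, and Arntl 9.69e-06 for level (0.97) and 1.93e-19 for the rhythm difference; the cause was not tested. With the i5 index as a covariate, 7 genes were called for level and 1 for the rhythm difference (Arntl, adjusted p = 0.0213), and 3 and 2 genes for level within either index; the covariate could not be fitted in the pair contrasts, where it is fixed by the group. Without TMM, 0 genes were called at ZT22 and ZT2. The level of Npas2 passed with DESeq2 (2.47) and without ZT6 and ZT18 (2.33). Its call at ZT10 and ZT14 was lost with DESeq2 and with the mean filter (3.87 in both). Exact permutations gave mean log2 differences of 1.31 (Arntl, p = 0.0367), 0.25 (Clock) and 2.38 (Npas2), and p = 0.00214 for the Arntl rhythm difference, unadjusted. For rhythm in controls, the edgeR cosinor called 14 genes (Arntl adjusted p = 0.0209), and the permutation of times gave p = 0.00025 for Arntl.

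With the replicate block, Npas2 passed for level (2.25, adjusted p = 0.0408), 9 genes were called at ZT6 and ZT18 and 4 in the control cosinor, where the adjusted p of Arntl was 0.0555. Leaving out each mouse gave 25 to 68 genes for level, 26 to 71 at ZT10 and ZT14, 0 to 8 at ZT22 and ZT2, 0 to 10 at ZT6 and ZT18, 2 to 7 for the contrast of pairs and 0 to 1 for the rhythm difference. The log2 fold change of Npas2 then spanned 1.79 to 2.92 for level, past the threshold in 5 of 24 fits, and 3.55 to 4.45 at ZT10 and ZT14, where 18 of 24 fits lost the call. The adjusted p of the Arntl rhythm difference spanned 0.0188 (without a ZT22 control) to 0.646. Signs turned in uncalled differences without 1 mouse, for Npas2 at ZT6 and ZT18 (-2.36 to 5.34, the lowest without the ZT6 mutant with 229 reads), Arntl2 at ZT22 and ZT2 (-0.49 to 1.12, the lowest without the ZT22 mutant with 67 reads) and Clock in the contrast of pairs (-0.22 to 0.024). The original depth is not in the deposited values, so the limit it sets for Arntl2 was not computed.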
